A study of Gallus gallus with 8 samples.

Results

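miR-216 and miR-217 are microRNAs (miRNAs), short RNAs that repress messenger RNAs by base pairing, and every row of the deposited matrix named for either of them was taken, with any letter or arm. These were 5 of 994 rows: miR-216a, miR-216b, miR-216c, miR-217-5p and miR-217-3p. The rows were selected by name, but they were proposed with the difference between the stages already known, so that difference is given as a description, and any count of members past a threshold is read as one too. The libraries were made from frontonasal ectodermal zone ectoderm, which signals to the growing upper jaw, dissected from untreated Rhode Island Red chick embryos. Embryos of Hamburger-Hamilton stage 18 (HH18, incubated for 48 h), before Sonic hedgehog (SHH) is expressed in this region, were compared with embryos at stage 22 (HH22, 72 h), after its onset. Each stage had 4 libraries of small RNA, numbered 5 to 8 at HH18 and 1 to 4 at HH22, and each library pooled 2 chicks. No embryo carried a transgene or received an agent, per the labels.

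miR-216 and miR-217 genes lie side by side in many vertebrate genomes, where one primary transcript can give rise to several of their hairpins. A hairpin is cut into a 5p and a 3p arm, of which one is usually kept and the other degraded. In adult vertebrates both miRNAs are known above all from the pancreas, where they are abundant in acinar cells. In zebrafish, miR-216a acts in the retina through a regulator of Notch signalling. In human cells miR-217 lowers the deacetylase SIRT1.

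All 5 rows were matched by name to 4 chicken genes, MIR217, MIR216A, MIR216B and MIR216C, on chromosome 3 in RefSeq (assembly GRCg7b). The 4 genes followed each other in that order, with 0 other genes starting between them, and all of them lay within a long noncoding RNA gene, LOC107052837. MIR216B and MIR216C overlapped each other. Strand is not given in the table used here, so reads of miR-216b and miR-216c are reported as possibly shared. The sources used here name no build for the deposited values, so RefSeq was used only for names and neighbours, and no coordinates or sequences are printed.

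The libraries held 6276121 to 31318393 reads at HH18 and 46912793 to 88471588 reads at HH22, so depth and stage cannot be told apart. Removing reads to reach an equal depth, as done below, evens out the number of reads only. HH18 replicates 5 and 6 were the shallowest of the 8. A read here is an estimated count recovered from the deposited log2 values, and 1 read was worth 0.3355 to 4.1814 normalized counts, that is, reads divided by the size factor of the library. Of all 994 rows, 651 had reads and 356 passed the filter for testing, which asked for 1 or more normalized counts in 4 or more libraries. Defining markers were checked as sums of normalized counts. The 8 epithelial rows (miR-203a, miR-205a and the miR-200 family) summed to 263830 to 375392 at HH18 and 453494 to 612253 at HH22. The 5 mesenchymal rows (both arms of miR-199 and miR-140, and miR-214) summed to 25750 to 29646 and 40461 to 44706. The 10 neural rows summed to 43282 to 61856 and 41838 to 50078, and the 6 blood and endothelial rows to 203.8 to 9140 and 293.6 to 1548. The blood and endothelial sum of 9140 was that of HH18 replicate 5 alone, against 823.7, 203.8 and 359.0 in HH18 replicates 6 to 8. The 6 striated muscle rows, of which miR-133a-5p and miR-1a-1-5p were at 0, summed to 0 to 38.19 and 12.56 to 80.9. In these normalized counts the epithelial and the mesenchymal sums were thus higher in every HH22 library than in any HH18 library, as miR-217-5p was. Other scalings were not applied to the sums. Single rows did not all follow the sums. Of the 8 epithelial rows 2 passed a Benjamini-Hochberg adjusted p of 0.05 (limma-trend) as higher at HH22 and 1 as lower. Of the 5 mesenchymal rows 3 passed as higher and 0 as lower. Of the 10 neural rows 0 passed as higher and 1 as lower. Of the 6 striated muscle rows 1 passed as higher and 0 as lower, and of the 6 blood and endothelial rows 0 passed. The shares over all tested rows were 9.83% as higher and 14.6% in either direction. The part of these cell types in the values below was not tested. In bulk tissue a change in the number of cells of a type and a change in the RNA per cell cannot be told apart.

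The cluster was scarce in this ectoderm. Its rows held 11188 of 310554506 reads, or 36.0 RPM (reads per mega-read) over all libraries. Of the 5 members 4 had reads and passed the filter. They ranked between 112 and 230 among the 994 rows by mean normalized count, with miR-217-5p the most abundant (344), followed by miR-216c (334), miR-216b (139) and miR-216a (41.7). Summed over the 4 rows, the cluster held 193.9, 117.1, 615.3 and 529.5 normalized counts in HH18 replicates 5 to 8. It held 734.1, 796.7, 2127 and 1756 in HH22 replicates 1 to 4. Every HH22 library was thus above every HH18 library, by a narrow margin between HH22 replicate 1 and HH18 replicate 7. Without the size factors, as plain RPM, these 2 libraries held 24.73 and 24.59. The mean of this sum went from 364 ± 245 to 1353 ± 696 (SD, n = 4), a ratio of 3.72.

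miR-217-5p, the arm of miR-217 that was detected, was the member with the clearest step between the stages. It measured 122.4, 71.08, 112.7 and 155.3 normalized counts in HH18 replicates 5 to 8, from 53, 17, 141 and 122 reads. It measured 328.8, 248.0, 920.8 and 796.6 in HH22 replicates 1 to 4, from 980, 395, 1620 and 1221 reads. The stages did not overlap, and within HH22 replicates 3 and 4 were well above replicates 1 and 2. The HH18 mean was 115 ± 34.7, and the HH22 mean of 574 ± 335 (SD, n = 4) was 4.97 times as high. On the log2(normalized count + 1) scale the difference was 2.14 (SE 0.51, 95% interval 1.02 to 3.26, limma-trend, not adjusted for the number of rows).

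The other arm, miR-217-3p, had 0 reads in all 8 libraries. A count of 0 allows up to 3 reads, which stood at 1.01 normalized counts in HH22 replicate 1, the deepest library, and at 12.54 in HH18 replicate 6, the shallowest. In HH22 replicate 1 the 5p arm had 980 reads. Both arms come from one hairpin, and any level of the 3p arm lay below what these depths could show. Intervals and limits of this kind cover counting error only.

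miR-216c was nearly as abundant as miR-217-5p but did not separate the stages. It measured 62.33 and 41.81 normalized counts in HH18 replicates 5 and 6, and 288.5 and 303.0 in HH18 replicates 7 and 8. At HH22 it measured 258.3, 302.6, 716.7 and 696.1 in replicates 1 to 4. The second pair of HH18 libraries therefore stood at the level of HH22 replicates 1 and 2, and the stages overlapped. The means were 174 ± 141 and 493 ± 247 (SD, n = 4), a ratio of 2.84 and a log2 difference of 1.84 (SE 0.70, 95% interval 0.30 to 3.39).

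miR-216b, whose gene overlaps that of miR-216c, was also far lower in HH18 replicates 5 and 6 than in replicates 7 and 8. It had 3 reads in HH18 replicate 5 and 1 in replicate 6, or 6.926 and 4.181 normalized counts. The exact 95% intervals of these counts reached 20.2 and 23.3 normalized counts. HH18 replicates 7 and 8 held 190.2 and 70.01, beyond those intervals. At HH22 it measured 139.2, 149.4, 367.7 and 182.7 in replicates 1 to 4. HH18 replicate 7 was above 3 of the 4 HH22 libraries. The means were 67.8 ± 87.1 and 209.8 ± 106.9 (SD, n = 4), and the log2 difference was 2.83 (SE 1.14, 95% interval 0.32 to 5.34).

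miR-216a, the member whose gene lies next to MIR217, was the scarcest of the 4 detected members. HH18 replicates 5 to 8 had 1, 0, 30 and 1 reads, or 2.309, 0, 23.97 and 1.273 normalized counts. Only replicate 7 exceeded the limit of 3 reads among them. HH22 replicate 1 had 23 reads and 7.717 normalized counts, while HH22 replicates 2 to 4 had 96.68, 121.6 and 80.25. HH22 replicate 1 was thus below HH18 replicate 7, and the exact 95% intervals of the pair, 4.89 to 11.6 and 16.2 to 34.2, did not meet. The means were 6.89 ± 11.4 and 76.6 ± 48.95 (SD, n = 4). The log2 difference of 3.87 (SE 1.40, 95% interval 0.77 to 6.96) was the largest of the 4 members and had the widest interval. It rests on 32 reads at HH18 against 514 at HH22.

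**Figure D1:**
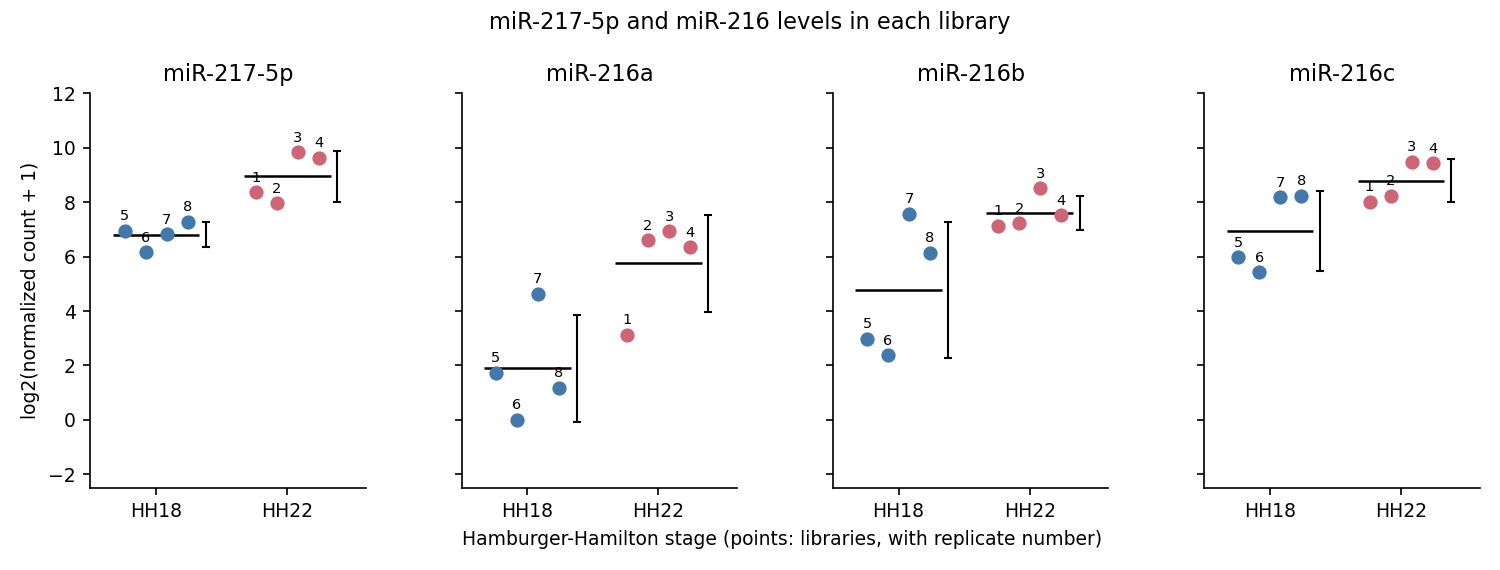
Level of each detected member as log2(normalized count + 1) (vertical axis) in the libraries of HH18 (blue) and HH22 (red); points are libraries with their replicate number, horizontal lines are stage means and bars at the side are ± 1 SD (n = 4). miR-217-5p has no overlap between stages, whereas HH18 replicates 7 and 8 reach the HH22 levels of miR-216c and HH18 replicate 7 that of miR-216b.

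All 4 tested members had a positive difference, with a median of 2.49 on the log2 scale. Among all 356 tested rows the median was 0.38 and 64.0% were positive. Of the members, 1 of 4 passed the threshold of a Benjamini-Hochberg adjusted p of 0.05 over all tested rows as higher at HH22, miR-217-5p. Of all tested rows 9.83% passed as higher and 14.6% in either direction (35 of 356 higher and 17 lower). With libraries scaled by the reads outside the 5 most abundant rows, 24 of 355 passed as higher and 47 as lower. The same 1 of 4 had no overlap between the stages with HH22 higher, against 11.5% of all tested rows. Nothing is read from these counts, since the members were proposed with this contrast known. miR-217-5p did not pass with voom, nor without HH22 replicate 3 or HH22 replicate 4, and 3 members passed without HH18 replicate 7 (miR-216a, miR-216b and miR-217-5p). With the reads of miR-216a, miR-216b and miR-216c summed into one row, the log2 difference was 2.16 (SE 0.74) and the row did not pass.

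The stage differences of miR-216b and miR-216c rested largely on HH18 replicates 5 and 6, and that of miR-217-5p did so little. Without both of these libraries the log2 difference fell to 0.74 (SE 0.56) for miR-216b and 0.59 (SE 0.44) for miR-216c. It was 1.89 (SE 0.52) for miR-217-5p and 2.84 (SE 1.37) for miR-216a. The ratio of HH22 to HH18 means was then 1.61 for miR-216b, 1.67 for miR-216c, 4.28 for miR-217-5p and 6.07 for miR-216a. With every library thinned to 6276121 reads, the depth of HH18 replicate 6, miR-217-5p kept 17 to 26 reads at HH18 and 63 to 225 at HH22, with no overlap. At that depth miR-216c kept 10 to 75 reads at HH18 and 43 to 151 at HH22, miR-216b 1 to 38 and 35 to 78, and miR-216a 0 to 8 and 1 to 29. All 3 overlapped between the stages.

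**Figure D2:**
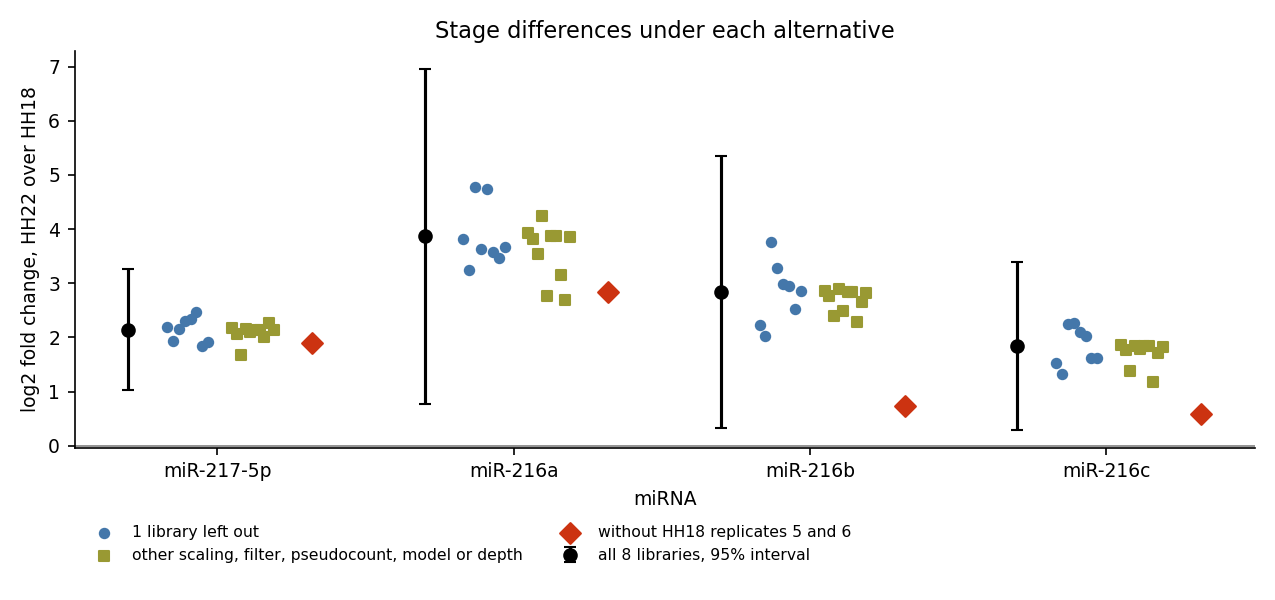
Stage difference of each detected member (log2 fold change of HH22 over HH18, vertical axis) with all 8 libraries and its 95% interval (black), with 1 library left out (blue), under another scaling, filter, pseudocount, model or depth (olive squares) and without HH18 replicates 5 and 6 (red diamonds). Without that pair miR-216b and miR-216c fall to 0.74 and 0.59, while miR-217-5p stays at 1.89.

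The neighbouring members shared part of their pattern within a stage. HH22 replicate 3 was the highest HH22 library for 4 of 4 members, against 30.3% of all tested rows. For miR-216c its exact 95% interval (678 to 757) overlapped that of HH22 replicate 4 (655 to 739). For miR-216a its interval (106 to 139) overlapped that of HH22 replicate 2 (82.0 to 113). For miR-216b and miR-217-5p its interval met that of no other HH22 library. HH18 replicate 6 was the lowest HH18 library for 4 of 4 members, against 46.1% of all tested rows, ties included. It was also the shallowest library, and miR-216a had 0 reads there. For each detected member the exact 95% interval in HH18 replicate 6 overlapped that in HH18 replicate 5. The other extremes were split among the members. The highest HH18 library was replicate 7 for 2 members and replicate 8 for 2. The lowest HH22 library was replicate 1 for 3 members and replicate 2 for 1. Reads of miR-216b and miR-216c are possibly shared, so the 4 rows may not be separate observations. Both deeper HH18 libraries (replicates 7 and 8) exceeded both shallower ones for 2 of 4 members, miR-216b and miR-216c, and for 26.1% of all tested rows. Within HH18, miR-217-5p spanned 1.12 on the log2(normalized count + 1) scale, miR-216c 2.83, miR-216b 5.21 and miR-216a 4.64. The median span of the other 114 tested rows with a mean of 50 to 500 normalized counts was 3.18, with quartiles of 1.34 and 6.70. miR-217-5p was thus steadier at HH18 than most rows of that abundance, and miR-216b spanned more than the median row. Within HH22 the spans were 1.89 for miR-217-5p, 1.47 for miR-216c, 1.39 for miR-216b and 3.81 for miR-216a. The compared rows had a median of 1.13 there, with quartiles of 0.69 and 1.88. miR-217-5p thus spanned more than 76.3% of them at HH22, unlike at HH18. miR-216a, with a mean of 41.7, lay outside their range of abundance.

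Shares of the cluster's own reads do not depend on the scaling between libraries, and they showed that the members did not keep one proportion. miR-217-5p made up 63.1% of the cluster reads in HH18 replicate 5 (Wilson 95% interval 52.4 to 72.6%) and 60.7% in replicate 6 (42.4 to 76.4%). In HH18 replicates 7 and 8 it made up 18.3% (15.7 to 21.2%) and 29.3% (25.2 to 33.9%). The intervals of the first pair lay above those of the second. At HH22 its share was 44.8%, 31.1%, 43.3% and 45.4% in replicates 1 to 4, between the HH18 extremes. The stage means of 42.9% ± 22.5 and 41.1% ± 6.76 (SD, n = 4) were close.

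miR-216c took 32.1%, 35.7%, 46.9% and 57.2% of the cluster reads in HH18 replicates 5 to 8 and 33.7% to 39.7% at HH22. miR-216b took 3.57%, 3.57%, 30.9% and 13.2% in HH18 replicates 5 to 8 and 10.4% to 19.0% at HH22. miR-216a took 0% to 3.90% at HH18 and 1.05% to 12.1% at HH22, the highest share being that of HH22 replicate 2. The shares overlapped between the stages for all 4 members and were more alike among HH22 libraries for 3 of them, by their SD. For miR-216a the SD was larger at HH22 (4.61 against 1.79 percentage points).

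**Figure D3:**
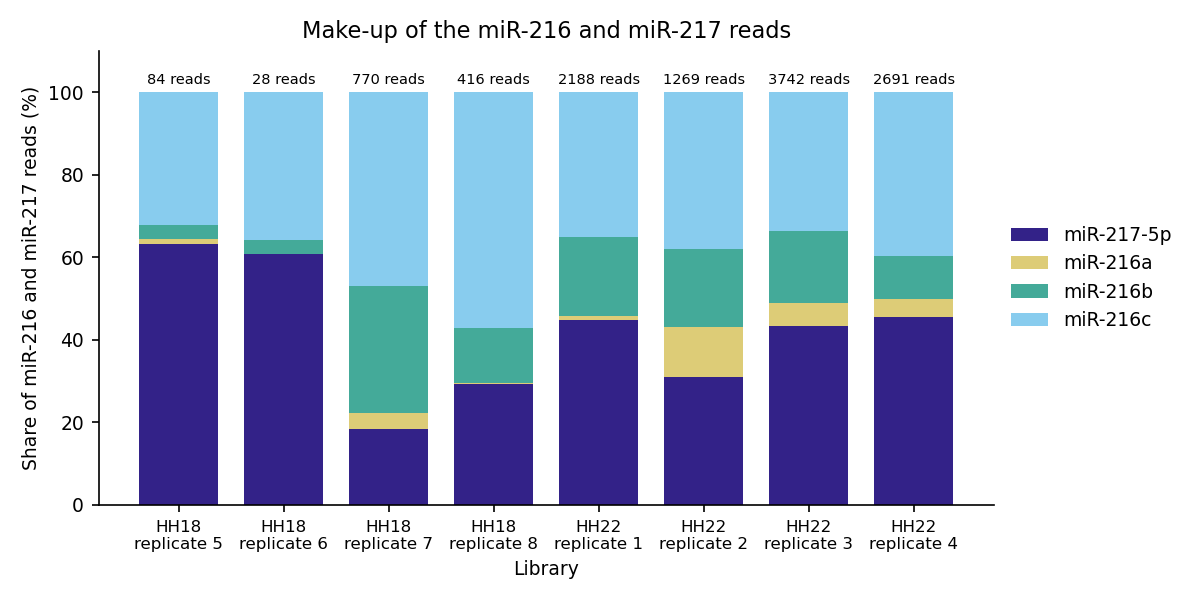
Share of the cluster's reads (vertical axis, %) taken by each of the 4 detected members in each library (horizontal axis), with the number of cluster reads above each bar. miR-217-5p takes 63.1% and 60.7% in HH18 replicates 5 and 6 and 18.3% and 29.3% in HH18 replicates 7 and 8, and 31.1% to 45.4% at HH22.

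The same reads can be read as ratios between a pair of members. miR-216c had 0.509 and 0.588 reads per read of miR-217-5p in HH18 replicates 5 and 6, and 2.56 and 1.95 in replicates 7 and 8. At HH22 the ratio was 0.786, 1.22, 0.778 and 0.874. The order of the most abundant pair was thus reversed between libraries of HH18. The mean log2 ratio was 0.15 ± 1.18 at HH18 and -0.15 ± 0.30 at HH22 (SD, n = 4), a difference smaller than the spread at HH18. The ratio of miR-216b to miR-216c, whose genes overlap, was 0.111, 0.100, 0.659 and 0.231 reads per read in HH18 replicates 5 to 8. At HH22 it was 0.539, 0.494, 0.513 and 0.262. Their mean log2 ratio was -2.19 ± 1.14 and -1.20 ± 0.49 (SD, n = 4), and the stages overlapped, as they did for each of the 6 pairs.

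The rows whose pattern was most like that of miR-217-5p, the most abundant member, were found by Pearson correlation of log2(normalized count + 1) over the 8 libraries. Among 312 rows outside the cluster whose mean normalized count reached 10, the highest were miR-101-2-5p (r = 0.947), miR-1740-5p (0.944), miR-107-5p (0.914), let-7a-5p (0.896) and let-7j-5p (0.896). These are descriptions over 8 libraries that share the 2 stages and differ in depth in the same direction. The r with log2 library depth ran from 0.696 to 0.899 over these 5 rows and from 0.714 to 0.895 over the 4 detected members. The first 3 of the 5 rows were nearly absent at HH18, at 0 to 1.598 normalized counts in every library, and reached 1.883 to 84.69 at HH22. They thus passed the filter through the HH22 libraries, where they are high. let-7a-5p and let-7j-5p, which had the same values in every library, belong to a family known for rising with developmental time, and measured 1259 to 2156 at HH18 and 4022 to 4569 at HH22. The other members had r = 0.837 (miR-216c), 0.779 (miR-216a) and 0.735 (miR-216b). Of the 312 rows outside the cluster, 10, 17 and 24 had a higher r than miR-216c, miR-216a and miR-216b. Much of each r is the step between the stages, on which the members were proposed, so nothing is read from their order.

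A list of other miRNAs known from pancreas, liver and intestine held 11 rows, of which 7 were tested, 1 rose and 0 fell, against 9.83% of all tested rows that rose. The one that rose was miR-148a-3p, abundant in liver and pancreas, from 225385 ± 19282 at HH18 to 372584 ± 19404 at HH22 (SD, n = 4). Its log2 fold change was 0.73 with an SE of 0.10 (limma, Benjamini-Hochberg adjusted p = 0.000911). When libraries were scaled by the reads outside the 5 most abundant rows, it did not pass (limma adjusted p = 0.125), and the 1 call of the list was a fall, that of miR-7 (log2 fold change -0.73, limma adjusted p = 0.0141). miR-7, known from endocrine and neural cells, had a log2 fold change of -0.26 (SE 0.17) with the main scaling. miR-375, a regulator of insulin secretion in pancreatic islets that also marks sensory placodes, measured 5963 ± 1400 and 6210 ± 851 (SD, n = 4), a log2 difference of 0.08 with an SE of 0.19. That difference was -0.38 under that scaling. miR-215-5p, known from intestine, had a log2 fold change of 3.14 (SE 1.44, limma adjusted p = 0.199). It was 122.4 in HH18 replicate 5 against 48.34 to 107.0 at HH22, and it rose past the threshold without that library (limma adjusted p = 0.0245). The liver miRNA miR-122-5p was at or near 0 outside HH18 replicate 5, which held 48.48 normalized counts, and was not tested. Over the 7 tested rows the median log2 difference was 0.50, against 0.38 for all tested rows. miR-217-5p and miR-375, both known from pancreas, thus gave different values here, 2.14 and 0.08. The value of miR-148a-5p, the other arm of miR-148a, was nearer to that of miR-217-5p, at 1.92 (SE 0.83, limma adjusted p = 0.177). It measured 8.363 to 127.3 at HH18 and 165.1 to 237.6 at HH22, without overlap. Without HH18 replicates 5 and 6 its difference was 0.73. The last tested rows of the list, miR-194 and miR-7b, were at 0.50 and 0.12.

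Estimates of the stage difference varied within other miRNA clusters as well, including between the arms of one miRNA. For miR-221 and miR-222, neighbours known from blood vessel and epithelial cells, the log2 fold changes of the 4 tested rows ran from -0.15 to 0.59, and 1 rose, miR-221-3p (SE 0.13, limma adjusted p = 0.0117). Both ends of that run were arms of miR-221, miR-221-5p and miR-221-3p. For miR-199 and miR-214, known from mesenchyme, the 3 tested rows ran from 0.57 to 1.90, and 2 rose, miR-199-5p (limma adjusted p = 0.000183) and miR-199-3p (limma adjusted p = 0.0304). Those that rose were both arms of miR-199, and miR-214 was at 0.57. The 4 detected members of the miR-216 and miR-217 cluster, 1 row per gene, ran from 1.84 to 3.87, on far fewer reads. Whether rows of a cluster differ in their stage difference, or the clusters in span, was not tested. A further cluster listed for comparison had 1 row here, miR-183, which fell (limma adjusted p = 0.0188, log2 fold change -0.88), and so gave no pair. The call of miR-199-3p was lost with no filter, and without any 1 of HH18 replicates 6 to 8 or HH22 replicates 2 to 4. That of miR-183 was lost without HH18 replicate 8, HH22 replicate 2 or HH22 replicate 3, and without both HH18 replicates 5 and 6. That of miR-221-3p was lost under library size scaling. Scaling by the reads outside the 5 most abundant rows lost the calls of both miR-221-3p and miR-199-3p. The adjusted p-values of these lost calls lay between 0.0539 and 0.463 (limma).

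**Figure D4:**
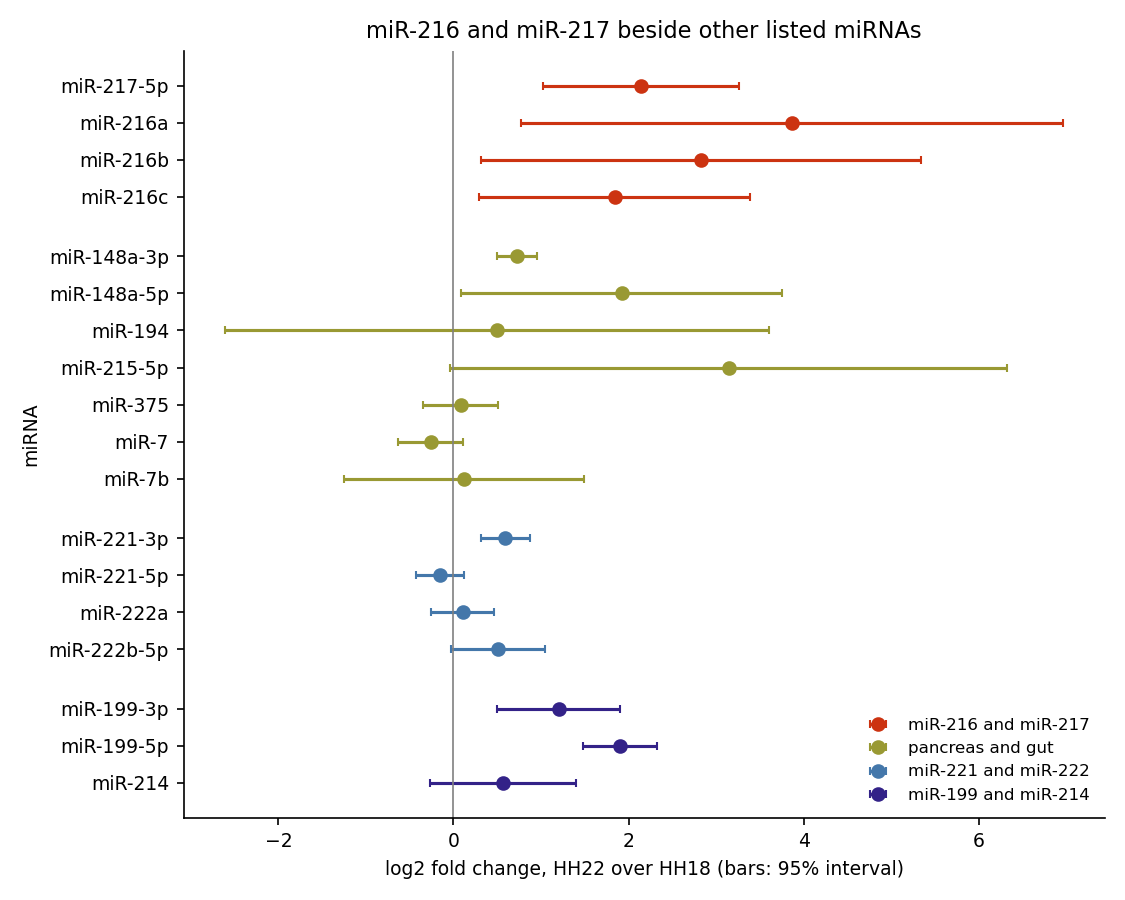
Log2 fold change of HH22 over HH18 (horizontal axis, points) with 95% intervals from limma-trend (bars, not adjusted for the number of rows) for the cluster's members and the tested rows of the pancreas and gut list and of another pair of clusters. miR-217-5p lies at 2.14, the pancreas and gut rows run from -0.26 to 3.14, and the miR-216 rows have wider intervals than miR-217-5p.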

How the data were processed

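The matrix holds 1 value per miRNA and library on a log2 scale, deposited by the authors. Per the submitters' processing notes, the tools included kallisto 0.44.0, cutadapt 1.8.1 and bcl2fastq. How the log2 values were made, the reference and the build: not given in the sources used here. The lowest value was 8.52 in every library. With it taken as 0 reads, the closed-form variance-stabilizing transformation was inverted. The results were whole multiples of 1 step per library for 100% of values (tolerance 0.001), and that step was the inverse of a median-of-ratios size factor.

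Rows with 1 or more normalized counts in 4 or more libraries were fitted with limma-trend (limma 3.58.1, R 4.3.3) on log2(normalized count + 1). The test of HH22 against HH18 was two-sided and adjusted by Benjamini-Hochberg over all tested rows. The fold of a scarce row depends on the pseudocount and on depth. That of miR-216a was 3.866 with 1 added, 4.245 with 0.5 and 2.759 with 5. With libraries thinned to equal depth it was 2.695, and with voom 3.143. The design named this fit for values that are not counts. p-values measure the spread between pools of 2 chicks. Other tools were matplotlib 3.10.9, scipy 1.17.1, pandas 2.3.3, numpy 2.4.6 and Python 3.11.15. The procedure was tested on simulated counts, where recovery of changes was required only for rows more abundant than any member. It thus does not show how well changes in rows as scarce as the members are found.

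Named rows were all members, the 5 rows most like the most abundant member, and tested rows of the lists. Members and lists were chosen with earlier results of these data known. Alternatives were other scalings, pseudocounts, filters, voom, 1 thinning to equal depth, libraries left out and summed rows.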

Additional observations from a re-analysis of the deposited data

Results flagged for a closer look

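In HH18, miR-216a was far higher in replicate 7, at 23.97 normalized counts from 30 reads, than in the other 3 libraries, which held 0 to 2.309 from 0 or 1 reads. Its gap to the next library was 0.904 of the range of the stage, above Dixon's 95% limit for 4 samples. On the log2(normalized count + 1) scale the gap was 0.628 of the range, below that limit, and the other 3 libraries were under their limit of 3 reads. It was the 1 such library among 10 sets of 4 values examined (the 4 detected members and their sum, at each stage). Dixon's limit is passed by chance in about 1 in 20 sets of normal values. Counts of 0 or 1 reads are not such values, and the sets share libraries and reads, so that rate may not hold here. Without that library the log2 difference of miR-216a between the stages was 4.78 and not 3.87. The same library had the highest HH18 level of miR-216b, 190.2 normalized counts. The cause was not tested.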

How the results depend on the processing

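The direction of each detected member held under every alternative. Leaving out 1 library at a time, the log2 difference ranged from 3.24 to 4.78 for miR-216a, 2.03 to 3.77 for miR-216b, 1.33 to 2.27 for miR-216c and 1.85 to 2.48 for miR-217-5p. The number of members past the threshold ranged from 0 to 3, the number of all tested rows past it from 27 to 66 against 52 with all libraries, and that of the pancreas and gut list from 1 to 2. Without any 1 of the HH22 replicates 1 to 4 it was 27, 29, 29 and 27 for all tested rows. Without HH18 replicates 5 and 6, miR-216b was at 0.74, miR-216c at 0.59, and 2 rows of the pancreas and gut list passed. With no filter 24 rows passed. With voom 0 members passed. The cause was not tested.

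Scaling by the reads outside the 5 most abundant rows, chosen after seeing the data as were the summed rows, moved the median log2 difference of all tested rows from 0.38 to -0.05, the calls from 35 higher and 17 lower to 24 higher and 47 lower, and the differences of miR-217-5p and miR-216c to 1.68 and 1.38. With miR-216b and miR-216c summed, the difference was 2.05. Summing rows that share a seed was not run, since no sequences were used here. No paired analysis was possible because the sample numbers 1 to 8 are all different. Of the detected members, miR-216a and miR-216b had the fewest reads in HH18 replicates 5 and 6, 0 to 3 each. Thinned to equal depth, miR-216b had 2, 1, 38 and 11 reads in HH18 replicates 5 to 8, and miR-216a 1, 0, 8 and 0. The part of depth in these low counts was not tested.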
